A study of Gossypium hirsutum with 2 samples.

Results

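The mitogen-activated protein kinase (MAPK) cascade of Upland cotton (Gossypium hirsutum) was read on the Affymetrix cotton array through 11 probe sets of 5 genes, out of 23977 probe sets for plant transcripts. The members were every probe set assigned by the platform annotation to a single gene whose alias in the gene table is MPK with a number, or MAPKKK. The comparison was between leaves of drought-stressed plants and leaves of well-watered plants, both of the cultivar Acala 1517-99, which the labels call drought tolerant, and it asks which leaf transcripts differ when irrigation is withheld. The drought plots received no further furrow irrigation, the well-watered plots were irrigated once more, and the third topmost leaf was collected from both kinds of plot 9 days after water was withheld. The labels give a plant age of 9 weeks for both groups, which is longer than the time between their own planting and harvest dates, and describe 3 field plots for each treatment, sampled from 8 plants apiece. The material analysed here is 1 array for drought leaves and 1 array for well-watered leaves, and the labels do not say whether they carry pooled RNA of several plots. Since neither group has a second array, the spread between replicates is unknown, no test was possible and each difference below describes these 2 arrays.

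A MAPK cascade passes a signal through successive protein kinases: a MAP kinase kinase kinase phosphorylates a MAP kinase kinase, which phosphorylates a MAP kinase on its activation loop. In Arabidopsis, MPK3 and MPK6 are the best-known terminal kinases. Their activity changes within minutes of pathogen molecules, oxidative stress, wounding and osmotic stress. A transcript signal therefore says nothing direct about how active a kinase was. In whole-leaf RNA, fewer cells of a type and less RNA per cell cannot be told apart.

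The annotation covered a small piece of the cascade. The gene table holds 24 cotton genes with an MPK number or the alias MAPKKK, and 5 of them had a probe set assigned to them alone. These were LOC107959059 (MPK3), with 6 probe sets, LOC107903096 (listed as both MPK3 and MPK6), LOC107905456 (MPK14, also listed as MAPK), LOC107912015 (MPK23) and LOC107959605 (MAPKKK), with 2 probe sets. The 4 genes listed in the table as kinase kinases, MAPKK1, MAPKK3, MKK2 and MKK6, had no probe set assigned to them alone, so the middle tier of the cascade is not analysed here. Signals are linear MAS5 intensities in arbitrary units, which depend on the probes as well as the transcript, so 1 probe set's level was not set against another's.

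Both arrays had been scaled alike, with a trimmed mean of 250.09 on each. The median plant signal was 78.3 on the drought array and 75.6 on the well-watered array. The controls for RNA quality went both ways: the ratio of 3-prime to 5-prime signal was 4.09 on the drought array and 14.1 on the well-watered array for the actin control and 10.2 on the drought array and 5.80 on the well-watered array for the ubq11 control. For the ss1 control this ratio was 1.30 on the drought array and 1.83 on the well-watered array. A probe set is called measurable below when its log2 signal, averaged over both arrays, was at or above the median of all plant probe sets (a signal of 72.3). A second guide to dimness is the 95th percentile of 51 control probe sets for reporter genes that a cotton leaf should lack, the brightest reporter being left out. That limit was 144 on the drought array and 75.7 on the well-watered array. The single annotated marker of leaf mesophyll, the rubisco activase gene RCA1, had a signal of 20148 on the drought array and 16617 on the well-watered array, ranking at 99.98% and 99.96% of plant probe sets.

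Of the 11 cascade probe sets, 5 were higher and 6 lower on the drought array, and 2 were at least 2-fold higher while 2 were at least 2-fold lower. Among all plant probe sets the share was 12.5% for at least 2-fold higher and 11.8% for at least 2-fold lower, against 18.2% of the members in each direction, which is 2 probe sets each way. The median log2 difference (drought minus well watered) was -0.13 over the members and 0.02 over all plant probe sets. Among the 6 measurable members, 3 were higher and 3 lower and 1 passed 2-fold in each direction, where the shares over measurable plant probe sets were 1.82% higher and 2.56% lower. Among the 5 dim members 1 passed 2-fold each way, where the shares over dim plant probe sets were 23.2% and 21.1%. The 11 probe sets therefore had no common direction, and 6 of them read 1 gene, MPK3. With 1 probe set per gene the median was 0.43 over 5 probe sets, still of both signs. The authors' deposited list of differential genes holds 110 probe sets, against 23977 plant probe sets on the array. None of the 11 members is in that list, which is too short for this absence to say anything about the cascade.

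**Figure D1:**
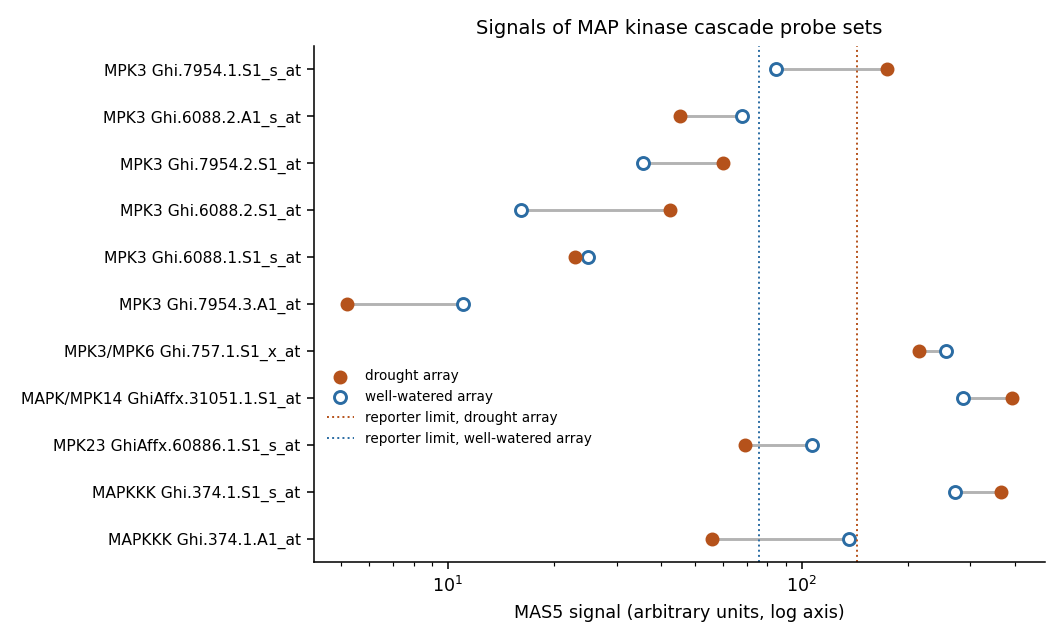
MAS5 signal (log axis) of each of the 11 cascade probe sets on the drought array (filled) and the well-watered array (open), joined by a line; dotted lines mark the reporter limit of each array, 144 for drought and 75.7 for well watered. The brightest MPK3 probe set is higher on the drought array, the 2 MAPKKK probe sets point opposite ways, and 5 of the 6 MPK3 probe sets lie under both limits on both arrays.

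MPK3, the stress-responsive terminal kinase, was read by 6 probe sets that did not share a direction. The brightest, Ghi.7954.1.S1_s_at, had a signal of 174.7 in drought leaves and 84.7 in well-watered leaves, a log2 difference of 1.04 or a ratio of 2.06. Its ending, _s_at, marks probes that copies of a gene can share, so the signal may not come from this gene alone. Both signals lay above the reporter limit of their array, which held for none of the other MPK3 probe sets on either array. The limit itself was higher on the drought array (144) than on the well-watered array (75.7), so passing it does not back the size of the difference. It ranked at 69.4% of the plant probe sets on the drought array and at 53.1% on the well-watered array. It belongs to the fourth of 5 equal classes of mean signal, in which 1.58% of plant probe sets were at least 2-fold higher and the SD of log2 differences was 0.48.

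A pair of dimmer probe sets of MPK3 was also higher in drought leaves. Ghi.7954.2.S1_at, of the same transcript cluster as the brightest, had 59.8 in drought leaves and 35.6 in well-watered leaves (log2 difference 0.75). Ghi.6088.2.S1_at had 42.3 in drought leaves and 16.1 in well-watered leaves, the largest log2 difference of the 11 members at 1.39. Both fall in the second class of signal, where 24.3% of plant probe sets were at least 2-fold higher and the SD of log2 differences was 1.45.

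The other 3 probe sets of MPK3 were lower or close to level. Ghi.6088.1.S1_s_at had 22.8 in drought leaves and 24.9 in well-watered leaves (log2 difference -0.13). Ghi.6088.2.A1_s_at had 45.2 in drought leaves and 68.0 in well-watered leaves (-0.59). The dimmest, Ghi.7954.3.A1_at, had 5.2 in drought leaves and 11.0 in well-watered leaves (-1.08). It falls in the dimmest class, where 23.7% of plant probe sets were at least 2-fold lower. The SD of the 6 log2 differences was 0.98, which is close to the SD of 1.07 between probe sets of the same gene over 120 other annotated genes with several probe sets. Measurable probe sets of the same gene differed less, with an SD of 0.42 over 59 genes, and dim ones more, with 1.55 over 25 genes. The excess of 1.04 on the brightest MPK3 probe set is larger than the SD of 0.42, and the differences of the 5 dim ones are within 1.55. MPK14 (0.46), MPK23 (-0.63) and both MAPKKK probe sets (0.43 and -1.28) also lay beyond 0.42. These SDs describe probe sets around the mean of their gene and not the error between 2 arrays, so they set no member apart.

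The letters A and S in a probe set ID mark the orientation relative to the sequence it was designed from, and which of them reads the coding strand was not determined here. Of the 4 S probe sets of MPK3, 3 were higher in drought leaves, with a median log2 difference of 0.90, while both A probe sets were lower. The MAPKKK probe sets divided in the same way, so all 3 A probe sets of the cascade were lower and 5 of the 8 S probe sets were higher. Over the whole array the orientations hardly differed, with 53.5% of 10647 A probe sets and 50.2% of 13329 S probe sets higher in drought leaves. By transcript cluster, 2 of 3 probe sets were higher in Ghi.7954 and 1 of 3 in Ghi.6088.

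The gene listed as both MPK3 and MPK6 was read by a single probe set, Ghi.757.1.S1_x_at, whose ending marks probes that may also bind other transcripts. It had 214.6 in drought leaves and 255.8 in well-watered leaves, a log2 difference of -0.25. Both signals were above the reporter limits. The size is under the SD of 0.42 between measurable probe sets of the same gene, and the sign is opposite to that of the bright probe set of MPK3.

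MPK14, a further MAP kinase by its alias, was higher in drought leaves by less than 2-fold. Its probe set GhiAffx.31051.1.S1_at had 392.8 in drought leaves and 285.4 in well-watered leaves (log2 difference 0.46, ratio 1.38). These signals ranked at 82.7% of plant probe sets on the drought array and at 77.5% on the well-watered array, and both were above the reporter limits. In its class, the brightest of the 5, the SD of log2 differences was 0.30 and 0.354% of plant probe sets were at least 2-fold higher.

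MPK23, also a MAP kinase by its alias, was lower in drought leaves by less than 2-fold. GhiAffx.60886.1.S1_s_at had 69.0 in drought leaves and 106.9 in well-watered leaves, a log2 difference of -0.63. The well-watered signal was above its reporter limit and the drought signal was not. In its class, the third of the 5, the SD of log2 differences was 0.76 and 7.72% of plant probe sets were at least 2-fold lower.

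**Figure D2:**
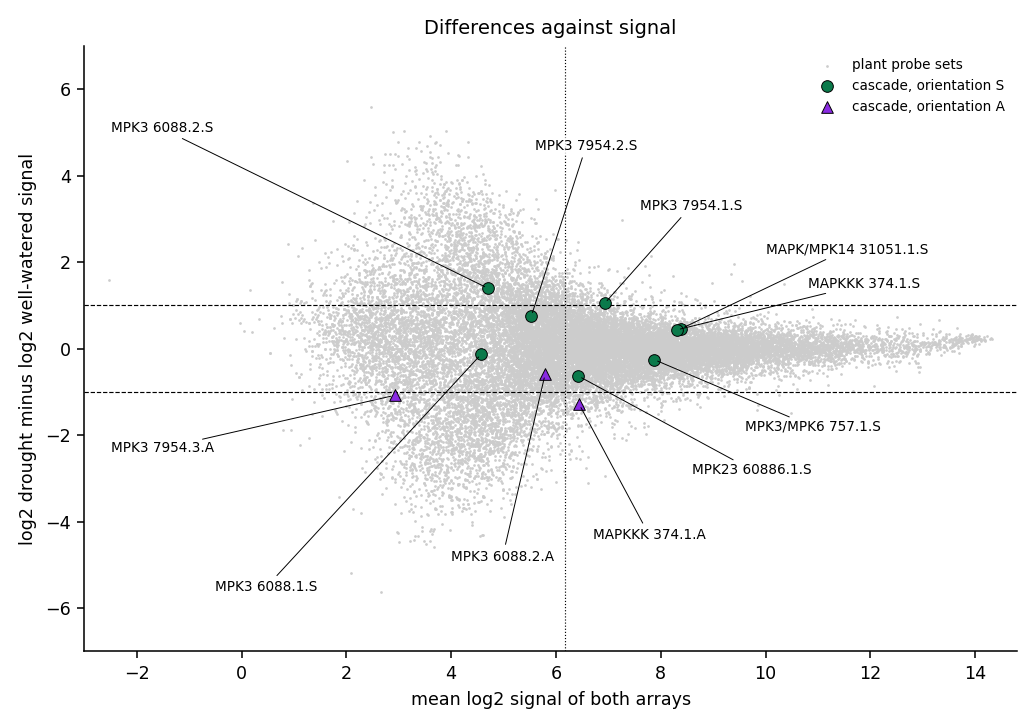
Log2 difference (drought minus well watered) against mean log2 signal for all plant probe sets (grey) and the cascade probe sets by orientation (circles S, triangles A); dashed lines mark 2-fold and the dotted line the measurable minimum of 72.3. The grey cloud is wide at low signal, where 5 of the 6 MPK3 probe sets lie, and narrow where MPK14 lies.

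MAPKKK, at the top of the cascade, was read by a pair of probe sets of opposite orientation listed under the same source sequence. The S probe set Ghi.374.1.S1_s_at had 366.3 in drought leaves and 271.4 in well-watered leaves (log2 difference 0.43). The A probe set Ghi.374.1.A1_at had 55.7 in drought leaves and 135.7 in well-watered leaves (-1.28), a signal 2.44-fold lower in drought leaves, in the same class of signal as MPK23. The S pair of signals was above both reporter limits, and of the A pair the well-watered signal alone was. The direction for this gene thus depends on which orientation reads its transcript.

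Pairs of opposite orientation with otherwise matching IDs are common on the array, though they need not share a source sequence. There were 2040 pairs of plant probe sets whose IDs differ in A or S and, in some, in the suffix, and 307 of them had both members measurable. Their log2 differences correlated at r = 0.04 across the 307 pairs, which share the same 2 arrays, and 157 pairs (51.1%) had the same sign. The 2 MAPKKK differences lay 1.72 apart, a gap reached by 5 of the 307 pairs, this one included, while the median gap was 0.48. Over all 2040 pairs, dim ones included, the median gap was 0.95. Ghi.6088.2 of MPK3 also has a probe set in each orientation, both dim, at -0.59 for A and 1.39 for S.

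**Figure D3:**
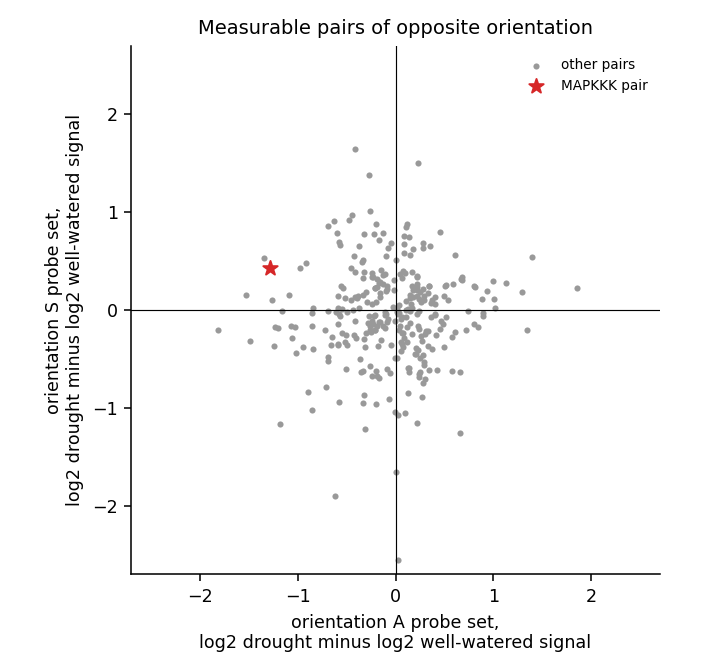
Log2 difference (drought minus well watered) of the S probe set against that of the A probe set for 307 measurable pairs of opposite orientation; the star marks MAPKKK, at -1.28 for A and 0.43 for S. The points show no slope (r = 0.04), so the 2 orientations of an ID did not repeat each other's difference.

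The direction of each of the 11 members was the same under all 6 scalings, the deposited signals included, but the sizes moved. A pseudocount cannot turn a sign. Median centring and spike-in scaling shifted every difference by -0.05 and -0.24, less than the smallest excess of 0.43, so they could turn none either. All 6 scalings use the same 2 arrays, so the shared direction says nothing about replicates. Scaling to 27 hybridisation spike-in probe sets lowered every difference by 0.24, which left 0.80 for the brightest MPK3 probe set, 0.22 for MPK14 and 0.19 for the S probe set of MAPKKK. On that scale 1 member was at least 2-fold higher and 2 were lower, and over all plant probe sets 2291 were higher and 3759 lower, against 3005 and 2839 with the signals as deposited. With a pseudocount of 26.4 added to each signal, the largest excess was 0.86, for the brightest MPK3 probe set, and the largest deficit was -0.98, for the A probe set of MAPKKK.

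**Figure D4:**
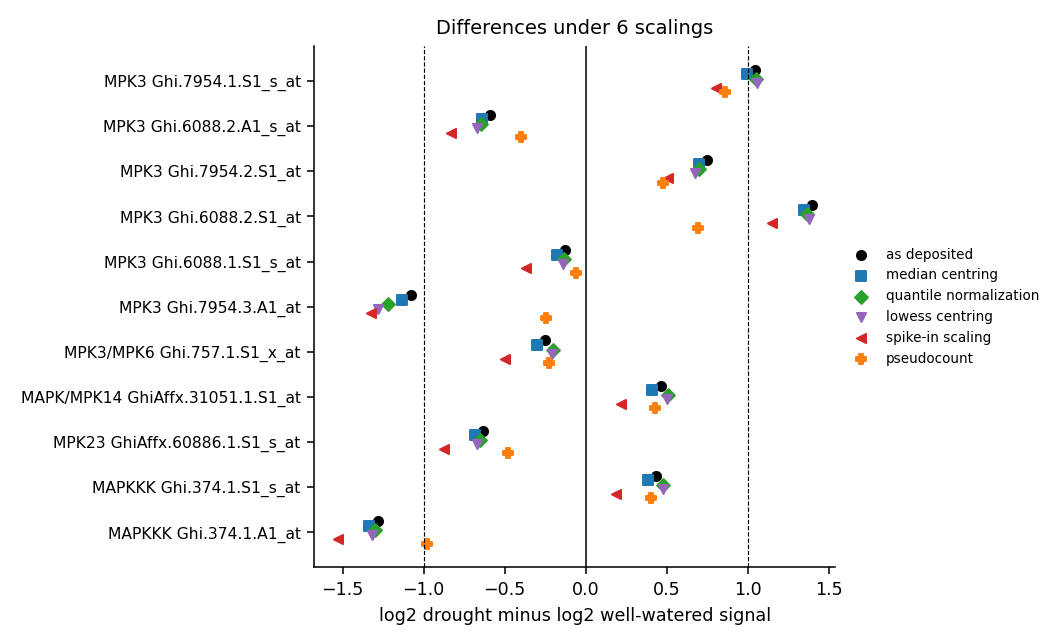
Log2 difference (drought minus well watered) of each cascade probe set under 6 scalings; dashed lines mark 2-fold. No probe set crosses 0, the spike-in values lie 0.24 to the left of the deposited ones, and the pseudocount brings all 11 inside 2-fold. The pseudocount, median centring and spike-in scaling could not have turned a sign here.

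Genes that act around the cascade in other plants were searched by alias. SERK1 encodes a somatic embryogenesis receptor kinase, a family whose members act with ligand-binding receptors upstream of MAPKs in Arabidopsis. Its measurable A probe set had 179.7 in drought leaves and 182.8 in well-watered leaves (log2 difference -0.02), and its dim S probe set had 15.0 in drought leaves and 82.8 in well-watered leaves (-2.46). No single-gene probe set matched the lists of other cascade kinases or of the phosphatases that switch MAPKs off. SOS2, a kinase of the salt-stress pathway and the only match among other drought-signalling kinases, had 828.1 in drought leaves and 802.1 in well-watered leaves (0.05).

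Families that include MAPK substrates or targets in Arabidopsis gave 10 probe sets of 8 genes, 4 higher and 6 lower, with 2 at least 2-fold higher and 3 at least 2-fold lower and a median of -0.06. All 5 of these 2-fold differences were on dim probe sets, where 23.2% of plant probe sets were at least 2-fold higher and 21.1% at least 2-fold lower (12.5% and 11.8% over all plant probe sets). Of the 4 measurable ones, the transcription factor gene WRKY24/WRKY71 was higher, with 145.7 in drought leaves and 89.7 in well-watered leaves (0.70). The other 3 were ACS1, for the ethylene-precursor enzyme ACC synthase (-0.31), WRKY15 (-0.12) and the ethylene response factor gene ERF3, with 201.5 in drought leaves and 202.1 in well-watered leaves. WRKY15 was another gene with a probe set in each orientation: the measurable A probe set gave -0.12, and the dim S probe set gave 1.17, with 106.9 in drought leaves and 47.5 in well-watered leaves. Whether these cotton genes are targets of the cascade was not tested.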

How the data were processed

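Leaf RNA (5.0 µg total RNA per labelling) was measured on 1 drought array and 1 well-watered array. The intensity values that the authors deposited are MAS5 signals on a linear scale. The submitters' processing notes name GCOS and MAS5, without a version, and scaling to one trimmed mean (2% from each end) was judged from the values. The authors' deposited list also holds detection p-values, per the file headers, each of which concerns 1 probe set on 1 array and not a difference. Control probe sets (155) were left out.

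Each difference is the log2 drought signal less the log2 well-watered signal, without a pseudocount. Calls are sizes of 2-fold or more, with no test, since there is 1 array per group; the number of arrays limits the precision. Genes were named through the platform annotation (697 probe sets with 1 gene, 46 with several, which were not named) and the RefSeq gene table for assembly Gossypium_hirsutum_v2.1, whose coordinates were not used. All members were kept, dim or not. Other genes came from alias lists: up to 4 measurable ones each, plus, chosen after their values were seen, dim SERK1 and WRKY15 probe sets. A planned listing of named genes nearest to each cascade gene in signal is left out, because it would set levels of different probe sets against each other. The lists of guard cell, phloem and xylem markers matched no probe set, and the trichome list matched GHTTG1 (0.39) and HOX3 (-0.64). The members and lists were chosen with earlier results of these data known. Alternatives were 5 other scalings (lowess span 0.3), filters, thresholds and probe-set choices. Calculations used Python 3.11.15, numpy 2.4.6, pandas 2.3.3 and statsmodels 0.14.6, and were tested on simulated data. The simulated noise was equally small at every signal, unlike in these data, so that check concerns the code and not the calls. Its pass mark left out quantile normalization and the pseudocount.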

Additional observations from a re-analysis of the deposited data

How the results depend on the processing

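No paired analysis was possible because each group has 1 array, and for the same reason no replicate could be left out. All 55 single-member values under the 5 other scalings kept their direction, which the pseudocount, median centring and spike-in scaling could not have turned. They moved by less than the SD between probe sets of the same gene (0.42 for measurable, 1.55 for dim members). That SD does not measure sensitivity to scaling, and 1.55 exceeds every dim member's whole difference. The dimmest MPK3 probe set went from -1.08 to -0.24 with the pseudocount. The counts of 2 members at least 2-fold higher and 2 lower were small and changed easily. The count higher was 1 with median centring, with spike-in scaling, among measurable probe sets, without probe sets ending in _x_at or _s_at and with 1 probe set per gene, and it was 0 with the pseudocount, above the 75th percentile of signal and at 3-fold. At 1.5-fold the counts were 3 higher and 4 lower. The count lower was 1 among measurable probe sets, and 0 with the pseudocount, above the 75th percentile, at 3-fold and with 1 probe set per gene. Some of these alternatives hold fewer probe sets by construction. The median of -0.13 turned to 0.09 among the 6 measurable members, 0.45 above the 75th percentile (2 members), 0.46 without _x_at and _s_at (5) and 0.43 with 1 probe set per gene (5), each taken over fewer members than the 11. Over all plant probe sets, 3005 were at least 2-fold higher and 2839 lower. These became 936 and 910 with the pseudocount, 218 and 307 among measurable ones, 24 and 43 above the 75th percentile, 1818 and 1615 without _x_at and _s_at, 5028 and 4695 at 1.5-fold, and 1593 and 1547 at 3-fold. Spike-in scaling gave 2291 and 3759. No member is in the authors' deposited list, so its signals gave no alternative value. Dim signal limits the 5 MPK3 probe sets under both reporter limits, and copies of a gene can share probes in _s_at and _x_at probe sets.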

Other observations

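The authors' deposited list gives a signal and a detection p-value for each of its 110 probe sets on both arrays. In the authors' deposited list, the 156 signals with a detection p under 0.05 had a lowest value of 43.6, and the other 64 signals had a median of 43.95 and a highest value of 235.2. Of the 6 MPK3 probe sets, 3 had all their signals between 5.2 and 42.3, under that lowest value. The probe sets of the authors' deposited list were selected and their signals are not equal to those of the value table, so this places the MPK3 signals on a scale and gives no detection call for them.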
